A study of Rattus norvegicus with 18 samples.

Results

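Axon guidance ligands and receptors were followed across RNA precipitated from regenerating rat axoplasm. The members were the transcript entries whose gene symbol belongs to the semaphorin, plexin, neuropilin, ephrin, Eph, Slit, Robo, netrin, Unc5 or teneurin series of names, chosen by name alone and not by any measured value. The rule found 54 of the 13416 entries in the table, under 52 gene symbols. One of them, Unc50, carries a matching name but codes for a protein of the endoplasmic reticulum and Golgi and not for a netrin receptor. It is counted with the tested members below and left out of all family counts. By edgeR it was called in no comparison, while DESeq2 called it lower with hnRNP K against FLAG RIP (adjusted p = 0.0251) and against the mean of hnRNP H1 and hnRNP F (0.0279). The other 53 entries comprised 17 entries for semaphorins (15 symbols), 8 for plexins, 2 for neuropilins, 6 for ephrins, 10 for Eph receptors, 2 for Slits, 1 for a Robo receptor, 2 for netrins, 2 for Unc5 receptors and 3 for teneurins.

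All 6 groups came from SD (Sprague-Dawley) rats whose sciatic nerve had been crushed, and no uninjured nerve is analysed here. Axoplasm, the fluid pressed out of nerve, was taken from the proximal stretch 7 days after the crush without detergent, then spun and precleared on beads. RNA was precipitated together with its binding proteins (RNA immunoprecipitation, RIP) with antibodies to 3 heterogeneous nuclear ribonucleoproteins (hnRNP H1, hnRNP F and hnRNP K) or to La/SSB. The FLAG RIP used an antibody to an artificial tag that rats lack, and Input was axoplasm RNA without precipitation. Each group had 3 libraries, and nothing in the labels says that these came from separate animals, so p-values measure only the spread between libraries. hnRNP H1 and hnRNP F are close relatives that bind runs of G, hnRNP K binds runs of C, and La/SSB binds the U-rich tails that RNA polymerase III leaves on its products.

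Guidance cues steer growing axons by attraction or repulsion at the growth cone. Secreted class 3 semaphorins act through neuropilins paired with plexins, membrane semaphorins mostly bind plexins directly, and ephrins on one cell engage Eph receptors on the next. Slits repel through Robo receptors, netrins repel through Unc5 receptors, and teneurins join cells by binding latrophilins and one another. In peripheral nerve these genes are used by neurons and also by Schwann cells, fibroblasts and vessels, so their mRNA in axoplasm does not name its cell of origin.

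Totals ran from 4610750 to 16754262 reads per library, so that 3 reads correspond to 0.179 to 0.651 per 1000000 unscaled reads. Levels below are in CPM (reads per 1000000 scaled reads), for which the scaled totals ran from 5084338 to 16065433. All 8 fibroblast and perineurial marker genes that were looked for had an entry, and together they took 4.84% to 9.64% of Input reads. The 10 Schwann cell markers, all with an entry, took 0.318% to 0.382%. Of 10 neuronal markers 8 had an entry, and these took 0.0149% to 0.0179% of Input reads. None of the 8 was at 0 in the Input median, whereas Prph was at 0 in the FLAG RIP median and Snap25 in the hnRNP H1 RIP median. Fibroblast markers thus exceeded neuronal ones by far in the RNA labelled as axoplasm, and fewer cells of a type and less RNA per cell cannot be told apart in such bulk material. In La/SSB RIP 1 every entry had at least 10 reads, which no other library showed, and no source used here gives the filter behind this.

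The best represented guidance mRNAs of Input axoplasm were those of a co-receptor, a secreted semaphorin, a teneurin, an ephrin and a transmembrane semaphorin. On the deposited length-scaled values (FPKM), Nrp2, the neuropilin that serves as co-receptor for class 3 semaphorins, had 162 ± 40.1 (SD, n = 3). Sema3c, a secreted ligand of neuropilins, had 151 ± 55.1 FPKM. Tenm2, a teneurin, had 120 ± 35.5 FPKM, and Efnb1, a transmembrane ephrin, had 85.7 ± 13.6 FPKM. Sema5a, a transmembrane semaphorin with thrombospondin repeats, had 71.9 ± 19.7 FPKM. The ranges of Nrp2, Sema3c and Tenm2 overlapped, so their order is not set beyond the spread of 3 libraries. Near the other end, the Eph receptor gene Ephb6, the Slit receptor gene Robo2 and the teneurin gene Tenm4 were each below 1 FPKM in every Input library.

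**Figure D1:**
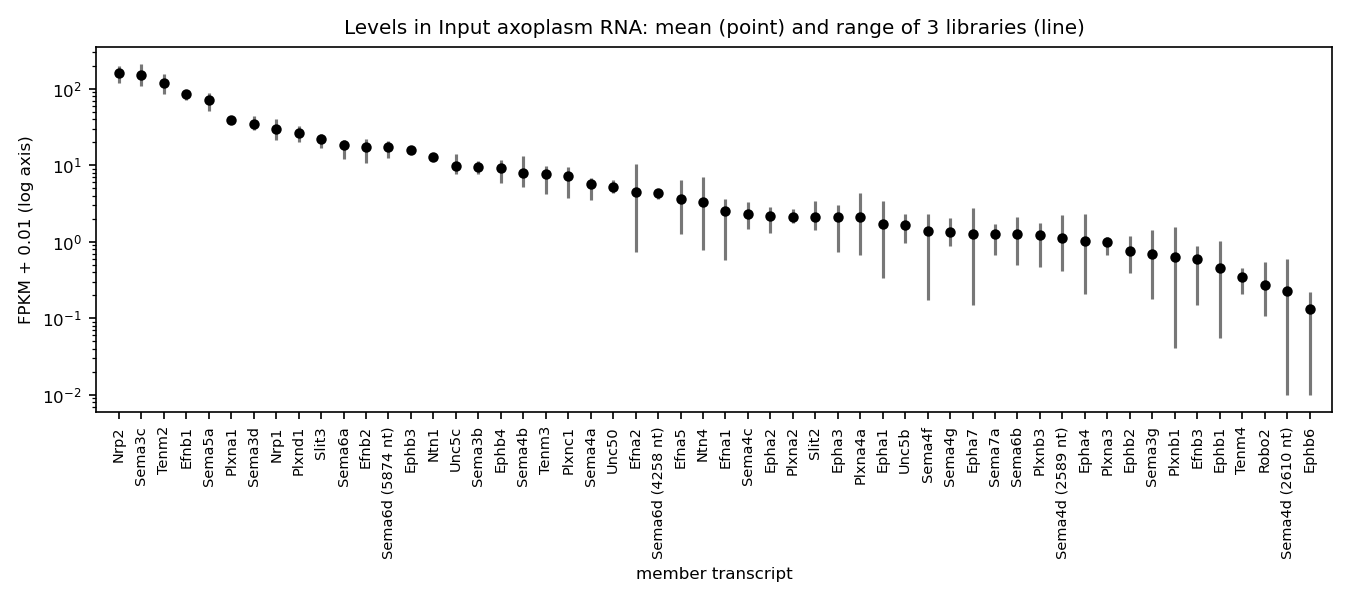
FPKM of all 54 member entries in Input, on a log axis after adding 0.01, ordered by the mean; points are means and lines run from the lowest to the highest of 3 libraries. Nrp2, Sema3c and Tenm2 lead with means of 162, 151 and 120 FPKM, and their lines overlap.

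Against the FLAG RIP, which measures RNA held by beads and antibody, guidance mRNAs were more often higher than lower in every specific RIP. With hnRNP H1, 24 of 53 tested members rose and 0 fell, where 39.5% of all tested entries were called (18.3% higher, 21.2% lower). With hnRNP F 20 rose and 3 fell, beside 33.7% called among all entries (16.6% higher, 17.1% lower). With hnRNP K 18 rose and 2 fell, beside 33.9% (14.5% higher, 19.4% lower). With La/SSB 10 rose and 0 fell, beside 18.8% (9.1% higher, 9.67% lower), so the share of members called there, 18.9%, was that of all entries. A call is an adjusted p under 0.05 in edgeR's quasi-likelihood test, and Robo2 was too low to be tested in the RIP libraries. At unadjusted p under 0.05, 1 member was lower with hnRNP H1 and 1 with La/SSB, and DESeq2 called 0 lower in either.

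The size of the differences ran the same way. The median log2 fold change of the members was 1.34 with hnRNP H1, 1.18 with hnRNP F, 1.48 with hnRNP K and 0.61 with La/SSB. Over all tested entries it was -0.27, -0.21, -0.30 and -0.32. Scaling by total reads instead of TMM moved those whole-table medians to -0.61, -0.54, -0.80 and 0.07 and the members' medians to 1.12, 0.80, 0.99 and 0.96. Under that scaling 20 members rose and 1 fell with hnRNP H1 (15.2% and 27.0% of all entries), and 17 rose and 4 fell with hnRNP F (13.1% and 22.3%). With hnRNP K 15 rose and 6 fell (9.35% and 27.7%), and with La/SSB 15 rose and 0 fell (11% and 3.55%).

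The 4 comparisons share the same 3 FLAG libraries, so a low FLAG value raises all of them together. The FLAG RIP itself was lower than Input for 10 of 54 members and higher for 0, by edgeR, where 16.2% of all entries were called (8.71% higher, 7.45% lower). At unadjusted p under 0.05, 16 members were lower and 0 higher, and DESeq2 called 13 lower and 0 higher. The 10 were Epha1, Ephb4, Nrp1, Sema3c, Sema3d, Sema3g, Sema4f, Sema5a, Tenm2 and Unc5c. On leaving out single libraries the calls of Ephb4, Sema3d, Sema3g, Sema4f and Tenm2 ended, for example without Input 1 for Ephb4, Sema3d, Sema4f and Tenm2 (0.139, 0.207, 0.0977 and 0.218) and without Input 2 for Sema3g (0.0761). The count was 18 without FLAG RIP 2 and 6 without Input 1.

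**Figure D2:**
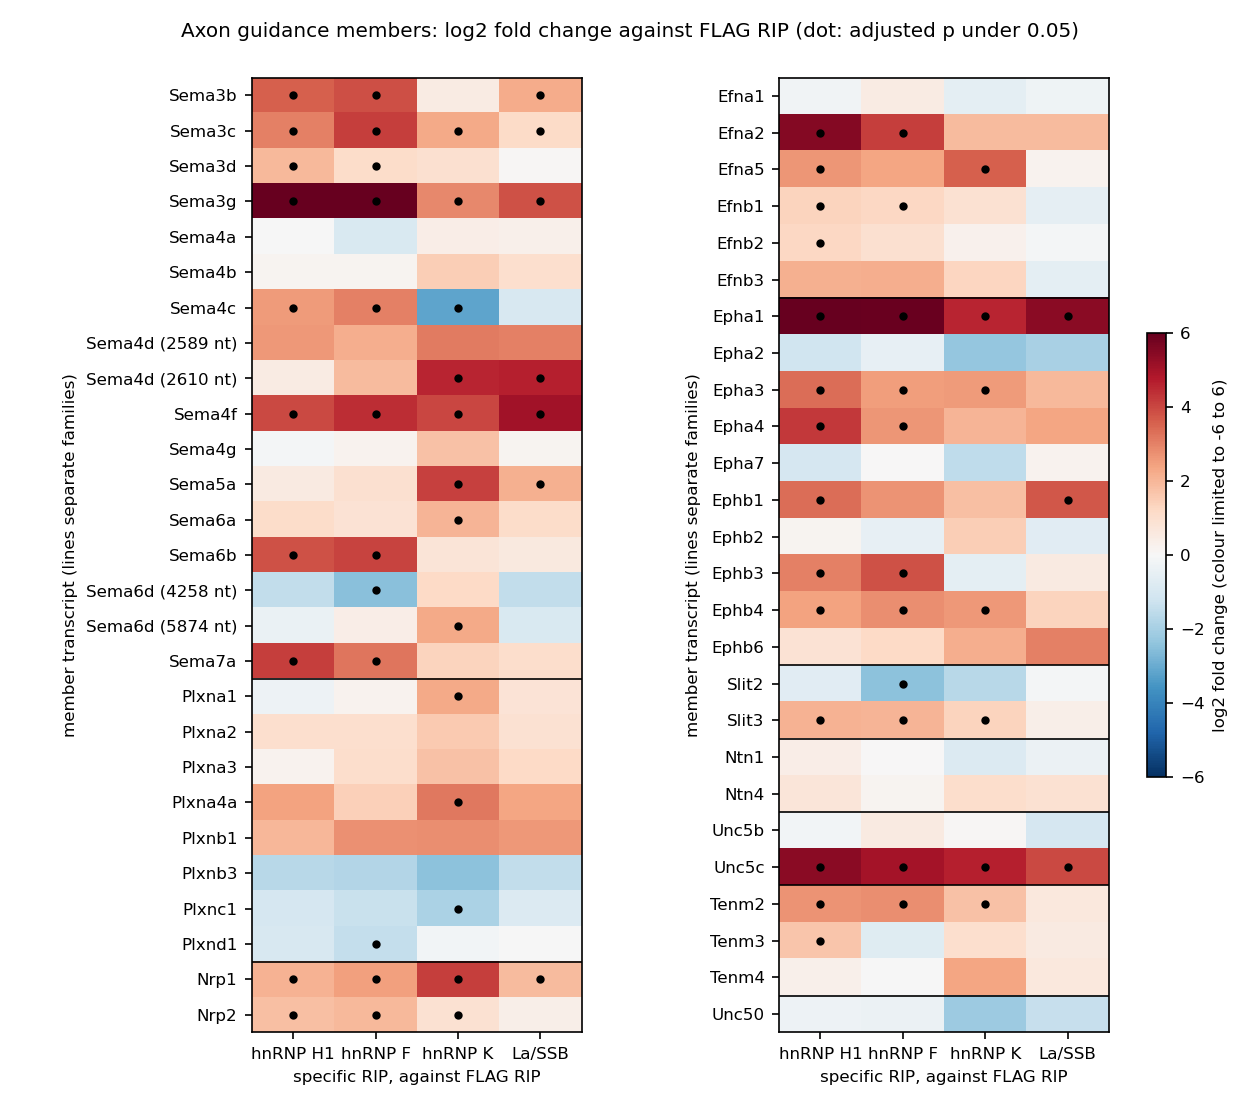
Log2 fold change of the 53 tested members in each specific RIP against FLAG RIP (3 libraries against 3), as colour limited to -6 to 6; a dot marks an adjusted p under 0.05 and lines separate families. Red fields outnumber blue ones, the plexins hold most of their dots with hnRNP K, and Sema4c is red with hnRNP H1 and hnRNP F but blue with hnRNP K. Epha1 has no FLAG read, so its colour depends on the 1 added to every deposited count.

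Among the secreted semaphorins, Sema3g and Sema3b followed hnRNP H1 and hnRNP F. Sema3g, a class 3 ligand best known from vessels, stood at 49.1, 46.0 and 47.3 CPM in hnRNP H1 RIP and at 25.2, 60.3 and 39.3 CPM in hnRNP F RIP. It stood at 0.918, 1.47 and 1.58 CPM in hnRNP K RIP, at 0.891, 3.21 and 4.13 CPM in La/SSB RIP, at 0, 0.31 and 0.0622 CPM in FLAG RIP and at 0.55, 4.38 and 1.28 CPM in Input. All 6 hnRNP H1 and hnRNP F libraries lay above the other 12 without overlap. The log2 fold change against FLAG was 7.89 ± 0.88 with hnRNP H1 (edgeR adjusted p = 3.55e-06), 7.70 ± 0.87 with hnRNP F (5.88e-06), 2.86 ± 0.77 with hnRNP K (0.00853) and 3.80 ± 0.78 with La/SSB (0.00436). Against Input, a comparison that does not use the scarce FLAG reads, it was 4.40 ± 0.79 with hnRNP H1 and 4.21 ± 0.78 with hnRNP F, both called. With only the compared libraries in the fit, the calls with hnRNP K and La/SSB ended (edgeR adjusted p = 0.0611 and 0.0701). They also ended with FLAG RIP 2 alone as control, a setting chosen after seeing the data, where the log2 fold changes were 1.78 and 2.71.

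Sema3c, which signals through neuropilins and plexins, stood at 1006, 781 and 914 CPM in hnRNP H1 RIP and at 2221, 1685 and 1957 CPM in hnRNP F RIP. It stood at 742, 407 and 372 CPM in hnRNP K RIP, at 316, 194 and 227 CPM in La/SSB RIP, at 180, 56.7 and 88.2 CPM in FLAG RIP and at 936, 533 and 421 CPM in Input. The hnRNP F libraries were the 3 highest of the 18, while the hnRNP H1 libraries overlapped Input. Against FLAG it rose with all 4 antibodies, by 3.04 ± 0.40, 4.16 ± 0.42, 2.25 ± 0.39 and 1.15 ± 0.37 on the log2 scale for hnRNP H1, hnRNP F, hnRNP K and La/SSB (edgeR adjusted p = 1.75e-05, 1.87e-06, 0.000338 and 0.0387). The La/SSB call ended without La/SSB RIP 1 (adjusted p = 0.16) and without any of 3 other single libraries. Against Input it rose with hnRNP F alone among the 4 (1.63 ± 0.38, adjusted p = 0.00412); whether that differs from hnRNP H1 is answered by the direct test of those groups below. Sema3b rose against FLAG with hnRNP H1 (3.59 ± 0.63), hnRNP F (3.85 ± 0.64) and La/SSB (2.24 ± 0.59), the last not without La/SSB RIP 1 (adjusted p = 0.11). Sema3d rose with hnRNP H1 (1.95 ± 0.38) and, less firmly, with hnRNP F (1.09 ± 0.37, adjusted p = 0.0317, and 0.138 without hnRNP F RIP 1). Against Input, from which its FLAG RIP differed by -1.09 ± 0.36, the values for Sema3d were 0.87 ± 0.36 and 0.01 ± 0.35, neither called by edgeR.

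The neuropilins, the semaphorin co-receptors, parted from each other. Nrp1 stood at 321, 243 and 257 CPM in hnRNP K RIP, at 56.8, 73.3 and 75.1 CPM in hnRNP H1 RIP and at 92.4, 88.7 and 77.9 CPM in hnRNP F RIP. It stood at 60.1, 43.3 and 78.9 CPM in La/SSB RIP, at 20.2, 16.9 and 10 CPM in FLAG RIP and at 194, 124 and 90.5 CPM in Input. The 3 hnRNP K libraries were the highest of all 18 and the 3 FLAG libraries the lowest. It rose against FLAG with hnRNP K by 4.14 ± 0.39 (edgeR adjusted p = 1.77e-06), with hnRNP F by 2.44 ± 0.37, with hnRNP H1 by 2.1 ± 0.36 and with La/SSB by 1.92 ± 0.36. The FLAG RIP lay 3.11 ± 0.37 below Input on the log2 scale (adjusted p = 6.49e-05). With hnRNP K it stood 1.00 ± 0.34 above Input, which edgeR did not call (0.0587) and DESeq2 did (0.0236).

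Nrp2 stood at 2817, 2506 and 2104 CPM in hnRNP H1 RIP and at 2601, 2678 and 2950 CPM in hnRNP F RIP. It stood at 1595, 1332 and 955 CPM in hnRNP K RIP, at 1055, 975 and 708 CPM in La/SSB RIP, at 1151, 421 and 517 CPM in FLAG RIP and at 945, 1009 and 569 CPM in Input. The 6 hnRNP H1 and hnRNP F libraries lay above the other 12, and hnRNP K overlapped FLAG. Against FLAG it rose by 1.81 ± 0.34 with hnRNP H1 (edgeR adjusted p = 0.000429) and by 1.96 ± 0.34 with hnRNP F (0.000319). Its rise of 0.91 ± 0.33 with hnRNP K (0.0387) was lost on leaving out any of 4 single libraries, for example 0.162 without hnRNP K RIP 1. Against Input it rose by 1.56 ± 0.33 and 1.71 ± 0.33 with hnRNP H1 and hnRNP F.

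The plexins carry semaphorin signals into the cell. Of 8 tested, 0 rose against FLAG with hnRNP H1, 0 with hnRNP F, 2 with hnRNP K and 0 with La/SSB. Of all entries 18.3%, 16.6%, 14.5% and 9.1% rose in the same order, so these counts do not set the plexins apart. With hnRNP K 37.5% of the plexins were called in either direction, beside 33.9% of all entries. At unadjusted p under 0.05, 0, 0, 3 and 1 plexins were higher, and DESeq2 called 1, 0, 3 and 0 higher. Plxna1, a partner of neuropilins, stood at 978, 808 and 1043 CPM in hnRNP K RIP, at 178, 169 and 142 CPM in hnRNP H1 RIP and at 257, 236 and 200 CPM in hnRNP F RIP. It stood at 361, 380 and 340 CPM in La/SSB RIP, at 322, 157 and 118 CPM in FLAG RIP and at 274, 272 and 291 CPM in Input. Its 3 hnRNP K libraries were more than every other library, and hnRNP H1 and hnRNP F overlapped FLAG. With hnRNP K it rose by 2.26 ± 0.33 against FLAG (edgeR adjusted p = 9.03e-05) and by 1.75 ± 0.30 against Input (0.000502), and both calls held in all alternatives run. The second rise, of Plxna4a (3.15 ± 1.2, adjusted p = 0.0492), ended in 10 of 14 alternatives.

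Both remaining plexin calls were falls. Plxnd1, the endothelial receptor of Sema3e, stood at 30.6, 50.8 and 60.4 CPM in hnRNP F RIP and at 123, 34.6 and 39.2 CPM in hnRNP H1 RIP, against 156, 125 and 100 CPM in FLAG RIP. It stood at 119, 108 and 110 CPM in hnRNP K RIP, at 127, 144 and 114 CPM in La/SSB RIP and at 106, 126 and 153 CPM in Input. The hnRNP F libraries lay below FLAG, Input, hnRNP K and La/SSB, while hnRNP H1 RIP 1 did not. Its fall with hnRNP F was 1.45 on the log2 scale (log2 fold change -1.45 ± 0.44, edgeR adjusted p = 0.0164, and 0.0709 without hnRNP F RIP 1). Plxnc1, the receptor of Sema7a, had 12.4, 16.5 and 15.7 CPM in hnRNP K RIP against 118, 18.9 and 33.2 CPM in FLAG RIP (-1.91 ± 0.62, adjusted p = 0.0235). It had 17.3, 29.5 and 39.8 CPM in hnRNP H1 RIP, 13.2, 19.7 and 36.8 CPM in hnRNP F RIP, 27.8, 37.6 and 34.6 CPM in La/SSB RIP and 15.2, 35.9 and 31.5 CPM in Input. FLAG RIP 1 was the highest of all 18 libraries, and without it the adjusted p was 0.275.

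The transmembrane semaphorins held members on both sides, with Sema5a and Sema6d higher in hnRNP K RIP and Sema4c higher in hnRNP H1 and hnRNP F RIP. Sema5a stood at 3540, 2108 and 1268 CPM in hnRNP K RIP, at 252, 226 and 143 CPM in hnRNP H1 RIP and at 289, 333 and 184 CPM in hnRNP F RIP. It stood at 650, 700 and 516 CPM in La/SSB RIP, at 252, 83.8 and 78.7 CPM in FLAG RIP and at 806, 650 and 401 CPM in Input. The hnRNP K libraries were the 3 highest, and the hnRNP H1 and hnRNP F libraries all lay below Input. It rose against FLAG with hnRNP K by 4.08 ± 0.49 (edgeR adjusted p = 1.37e-05) and with La/SSB by 2.13 ± 0.45 (0.00508). Against Input it rose with hnRNP K by 1.90 ± 0.43 and fell with hnRNP H1 (-1.58 ± 0.43, adjusted p = 0.00906) and hnRNP F (-1.2 ± 0.42, 0.0495). The fall with hnRNP F ended in 6 of 14 alternatives, among them leaving out Input 1 (0.195), and the rise with hnRNP K over Input ended without hnRNP K RIP 1 (0.0542). The fall with hnRNP H1 ended without Input 1 (0.0511) and without hnRNP H1 RIP 3 (0.0533).

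Sema4c, a ligand of B-type plexins, stood at 203, 92.1 and 141 CPM in hnRNP H1 RIP and at 106, 148 and 359 CPM in hnRNP F RIP. It stood at 2.02, 4.21 and 1.65 CPM in hnRNP K RIP, at 12.3, 7.72 and 18.3 CPM in La/SSB RIP, at 0.205, 16.7 and 56.1 CPM in FLAG RIP and at 5.32, 11.2 and 6.58 CPM in Input. The hnRNP H1 and hnRNP F libraries were the 6 highest and the FLAG libraries were widely scattered. Against Input it rose by 4.2 ± 0.96 with hnRNP H1 (edgeR adjusted p = 0.00255) and by 4.70 ± 0.98 with hnRNP F (0.00163). Against FLAG the rises were 2.56 ± 0.92 (0.0332) and 3.03 ± 0.93 (0.0184), and the fall with hnRNP K was -3.15 ± 0.96 (0.0173). That fall had overlapping libraries and ended without FLAG RIP 3 (0.153), hnRNP K RIP 1 (0.0694) or hnRNP K RIP 3 (0.0692). The rise with hnRNP H1 ended in 5 of 14 alternatives, among them leaving out FLAG RIP 2 (0.085). Without hnRNP H1 RIP 1 or 3 its adjusted p was 0.0963 and 0.0604. The rise with hnRNP F ended in 3, among them leaving out FLAG RIP 2 (0.0522) or hnRNP F RIP 3 (0.083).

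Sema6d, a ligand of A-type plexins, had 2 transcript entries that share much of their sequence, so reads may be split between them. The longer, of 5874 nt (ENSRNOT00000066101), stood at 371, 279 and 227 CPM in hnRNP K RIP, at 54.1, 39.5 and 47.9 CPM in hnRNP H1 RIP and at 25, 128 and 92.0 CPM in hnRNP F RIP. It stood at 34.5, 34.3 and 31.1 CPM in La/SSB RIP, at 66.8, 16.0 and 101 CPM in FLAG RIP and at 92.8, 99.1 and 55.7 CPM in Input. The hnRNP K libraries were the 3 highest of all 18, and it rose with hnRNP K against FLAG by 2.27 ± 0.56 (edgeR adjusted p = 0.00501). The entry of 4258 nt (ENSRNOT00000090802) had 55.2, 35.9 and 29.8 CPM in hnRNP K RIP, 10.9, 3.53 and 4.21 CPM in hnRNP H1 RIP and 4.80, 3.55 and 0.197 CPM in hnRNP F RIP. It had 4.16, 8.51 and 6.75 CPM in La/SSB RIP, 35.6, 15.6 and 1.68 CPM in FLAG RIP and 16.5, 12.3 and 15.9 CPM in Input. Its hnRNP K libraries lay above hnRNP H1, hnRNP F and La/SSB but reached into the FLAG range. Its fall with hnRNP F against FLAG (-2.53 ± 0.94, adjusted p = 0.0452) ended in 7 of 14 alternatives, among them leaving out FLAG RIP 1 (0.212).

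Sema4d, a ligand of B-type plexins, also had 2 similar entries. That of 2610 nt (ENSRNOT00000076794) had 4.13, 1.47 and 1.97 CPM in hnRNP K RIP and 0.817, 5.99 and 1.69 CPM in La/SSB RIP. It had 0 in all 3 hnRNP H1 libraries, 0, 0.161 and 0.59 CPM in hnRNP F RIP, 0.0682, 0 and 0 CPM in FLAG RIP and 0.183, 1.23 and 0 CPM in Input. With a single FLAG read behind it, the ratio of pooled read rates to FLAG was 102 for hnRNP K (exact 95% counting interval 17.8 to 4060) and 110 for La/SSB (19.2 to 4370). Both were called (edgeR adjusted p = 0.00222 and 0.00568), and both calls ended with FLAG RIP 2 alone as control (0.0649 and 0.141). The entry of 2589 nt (ENSRNOT00000018378) had 6.70, 7.34 and 7.4 CPM in hnRNP K RIP, 5.92, 4.57 and 4.68 CPM in hnRNP H1 RIP and 2.81, 8.06 and 0 CPM in hnRNP F RIP. It had 8.02, 8.42 and 3.88 CPM in La/SSB RIP, 0, 2.38 and 0 CPM in FLAG RIP and 4.95, 1.40 and 0.802 CPM in Input, and was called in no comparison by edgeR. DESeq2 called it higher than FLAG with hnRNP H1, hnRNP K and La/SSB (adjusted p = 0.0412, 0.0136 and 0.0315).

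Sema4f and Sema7a were low transcripts with rises against FLAG. Sema4f, a membrane semaphorin of neurons, had 10.2, 4.83 and 2.03 CPM in hnRNP H1 RIP, 11.4, 2.1 and 10.8 CPM in hnRNP F RIP and 4.13, 5.09 and 8.19 CPM in hnRNP K RIP. It had 17.4, 6.94 and 13.2 CPM in La/SSB RIP, 0, 0.723 and 0.187 CPM in FLAG RIP and 7.89, 0.526 and 4.97 CPM in Input. All 12 specific RIP libraries lay above FLAG, and they overlapped Input. Against FLAG it rose by 3.95 ± 1.02, 4.45 ± 1.04, 3.99 ± 1.02 and 5.04 ± 1.07 on the log2 scale with hnRNP H1, hnRNP F, hnRNP K and La/SSB (edgeR adjusted p = 0.00547, 0.00343, 0.00628 and 0.00521). The call with hnRNP F ended with only the compared libraries in the fit (edgeR adjusted p = 0.0528). All 4 calls ended with FLAG RIP 2 alone as control, with log2 fold changes of 2.81, 3.31, 2.85 and 3.89 in the same order. Against Input the values in the same order were 0.33 ± 0.93, 0.84 ± 0.93, 0.35 ± 0.92 and 1.44 ± 0.94, and none was called by edgeR.

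Sema7a, a GPI-anchored semaphorin that binds integrins and Plxnc1, had 25.4, 22.3 and 40.1 CPM in hnRNP H1 RIP and 23.3, 13.2 and 8.26 CPM in hnRNP F RIP. It had 7.90, 1.96 and 2.13 CPM in hnRNP K RIP, 3.27, 5.12 and 2.02 CPM in La/SSB RIP, 0.0682, 4.44 and 0.373 CPM in FLAG RIP and 3.12, 1.40 and 3.37 CPM in Input. The hnRNP H1 and hnRNP F libraries were the 6 highest. It rose against FLAG with hnRNP H1 by 4.13 ± 1.07 (edgeR adjusted p = 0.00546) and with hnRNP F by 3.19 ± 1.03 (0.0233). The second call ended without hnRNP F RIP 1 (0.0773) and in 4 other alternatives. Sema6b rose with hnRNP H1 (3.83 ± 0.84) and hnRNP F (4.04 ± 0.85), and Sema6a rose with hnRNP K (2.05 ± 0.54). Sema4a, Sema4b and Sema4g were called in none of the 4.

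**Figure D3:**
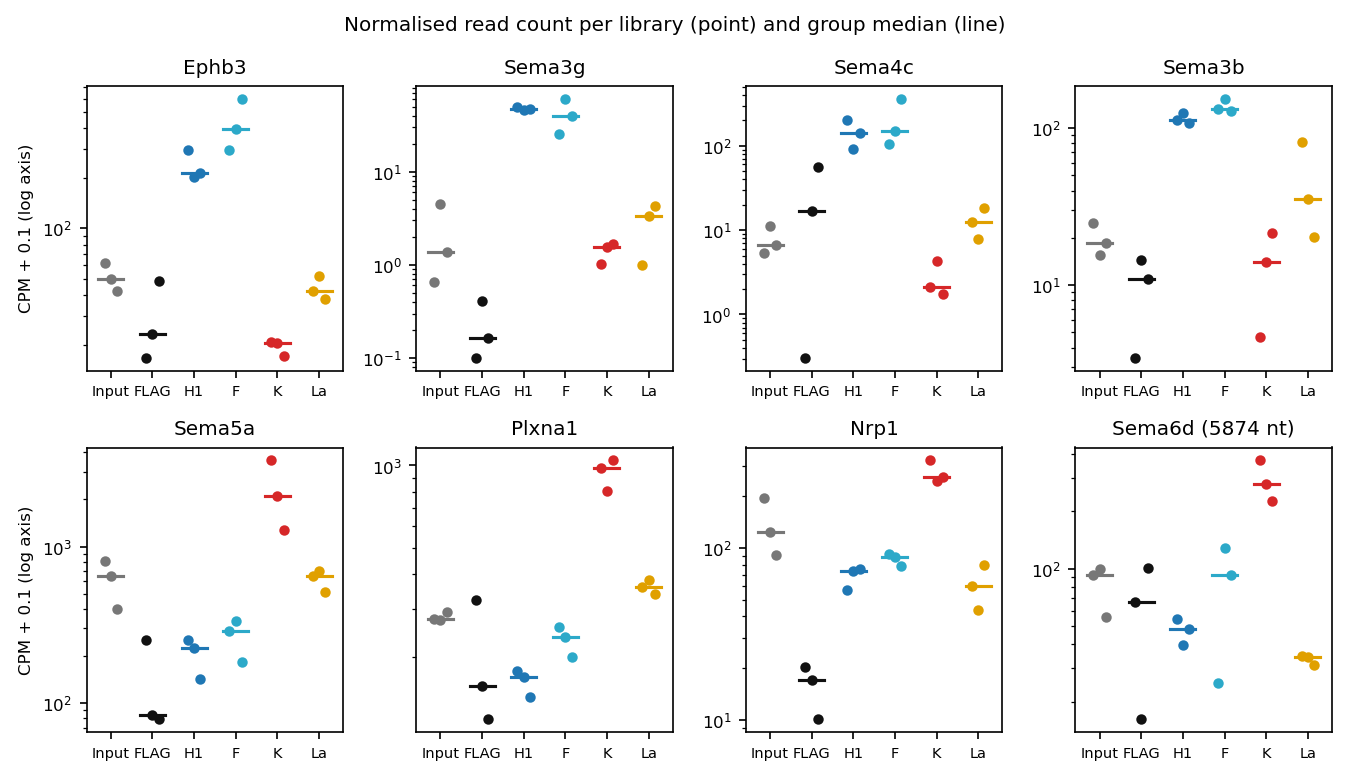
CPM plus 0.1 on a log axis for 8 members in each of the 18 libraries; points are libraries and lines are group medians (H1, F and K stand for the hnRNP RIPs and La for La/SSB RIP). In the upper row the 6 hnRNP H1 and hnRNP F libraries lie above all others, and in the lower row the 3 hnRNP K libraries do.

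Eph receptors and their ephrin ligands included members that rose against FLAG with each hnRNP antibody. Of 10 Eph receptors 6 rose with hnRNP H1, 5 with hnRNP F, 3 with hnRNP K and 2 with La/SSB, and of 6 ephrins 4, 2, 1 and 0 rose. Of all entries 18.3%, 16.6%, 14.5% and 9.1% rose in the same order. The ephrin share with hnRNP K, 16.7%, was near that of all entries. The receptors higher were 6, 6, 4 and 6 at unadjusted p under 0.05 and 6, 6, 4 and 3 by DESeq2, so the order of antibodies depends on the test. Set directly against hnRNP H1 and hnRNP F, hnRNP K differed by edgeR for 1 of 10 receptors, Ephb3, and for 0 of 6 ephrins (2 at unadjusted p under 0.05 and 1 by DESeq2). Of all entries 34.1% differed there by edgeR. No ephrin passed with La/SSB in edgeR, at unadjusted p under 0.05 or in DESeq2 (0 in each). With 9.1% of all entries higher there by edgeR, 6 ephrins are too few for this to set them apart. Ephb3, a receptor for transmembrane ephrins, stood at 295, 202 and 216 CPM in hnRNP H1 RIP and at 294, 396 and 597 CPM in hnRNP F RIP. It stood at 20.7, 20.5 and 17 CPM in hnRNP K RIP, at 41.8, 51.6 and 37.5 CPM in La/SSB RIP, at 16.6, 23.1 and 48.1 CPM in FLAG RIP and at 62.2, 49.8 and 42.2 CPM in Input. The 6 hnRNP H1 and hnRNP F libraries lay far above the rest, and hnRNP K lay below every Input library. Against FLAG it rose by 3.00 ± 0.40 with hnRNP H1 (edgeR adjusted p = 2.11e-05) and by 3.84 ± 0.42 with hnRNP F (3.66e-06). Against Input it rose by 2.2 ± 0.38 and 3.06 ± 0.39 with the same antibodies and fell with hnRNP K (-1.40 ± 0.37, adjusted p = 0.0146). That fall ended without Input 1 (0.0648), hnRNP K RIP 1 (0.0524) or hnRNP K RIP 3 (0.0668).

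Epha1, a receptor of GPI-anchored ephrins, had 11.5, 17.1 and 8.43 CPM in hnRNP H1 RIP, 4.97, 10.3 and 0 CPM in hnRNP F RIP and 2.3, 1.08 and 2.44 CPM in hnRNP K RIP. It had 1.71, 1.04 and 8.43 CPM in La/SSB RIP, 9.54, 3.51 and 0.802 CPM in Input and no read in any FLAG library. hnRNP F RIP 3 also lacked reads, and the specific RIPs overlapped Input. Measured against 3 reads over the FLAG group it was at least 170-fold higher with hnRNP H1, 73.1-fold with hnRNP F, 26.7-fold with hnRNP K and 49.4-fold with La/SSB. All 4 were called (edgeR adjusted p = 0.000532, 0.00224, 0.00973 and 0.00884), and the last 3 calls ended with FLAG RIP 2 alone as control (0.0686, 0.144 and 0.177). None of the 4 RIPs was called above Input by edgeR or DESeq2, and FLAG itself was at least 59.6-fold lower than Input.

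Epha4, which binds both ephrin classes, had 39.0, 31.9 and 32.5 CPM in hnRNP H1 RIP, 7.45, 14.5 and 11.8 CPM in hnRNP F RIP and 6.89, 4.89 and 9.85 CPM in hnRNP K RIP. It had 10.6, 5.03 and 12.3 CPM in La/SSB RIP, 4.70, 0.31 and 0.0622 CPM in FLAG RIP and 1.1, 2.81 and 11.2 CPM in Input. The hnRNP H1 libraries were the 3 highest of all 18. It rose against FLAG with hnRNP H1 by 4.25 ± 0.99 (edgeR adjusted p = 0.00266) and with hnRNP F by 2.64 ± 0.93 (0.0358, and 0.0864 without hnRNP F RIP 2). Ephb1, another receptor of transmembrane ephrins, had 7.80, 9.81 and 2.11 CPM in La/SSB RIP and 2.56, 7.84 and 4.68 CPM in hnRNP H1 RIP, against 0, 1.24 and 0.0622 CPM in FLAG RIP. It had 3.64, 5.48 and 0 CPM in hnRNP F RIP, 1.29, 1.57 and 2.05 CPM in hnRNP K RIP and 1.1, 3.86 and 0.16 CPM in Input. Its calls with La/SSB (3.72 ± 1.2, adjusted p = 0.0372) and hnRNP H1 (3.37 ± 1.19, 0.0303) ended in 7 and 8 of 14 alternatives, among them leaving out FLAG RIP 1 (0.0845 and 0.0773). Ephb4, the receptor of Efnb2 in vessels, rose with hnRNP H1, hnRNP F and hnRNP K by 2.40 ± 0.57, 2.81 ± 0.58 and 2.59 ± 0.58. Against Input, below which its FLAG RIP lay (-1.69 ± 0.54), the values for Ephb4 were 0.72 ± 0.53, 1.13 ± 0.53 and 0.87 ± 0.53, none called by edgeR.

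Among the ligands, Efnb1 stood at 605, 557 and 513 CPM in hnRNP H1 RIP and at 522, 406 and 636 CPM in hnRNP F RIP. It stood at 489, 402 and 336 CPM in hnRNP K RIP, at 153, 184 and 121 CPM in La/SSB RIP, at 243, 70.6 and 339 CPM in FLAG RIP and at 275, 235 and 176 CPM in Input. All hnRNP H1 and hnRNP F libraries lay above FLAG and Input, and FLAG spread over a range that took in Input and 1 hnRNP K library. Against FLAG it rose by 1.34 ± 0.40 with hnRNP H1 (edgeR adjusted p = 0.0128) and by 1.24 ± 0.40 with hnRNP F (0.0232, and 0.0752 without hnRNP F RIP 3). Efna2, a GPI-anchored ephrin, had 34.4, 11.1 and 21.9 CPM in hnRNP H1 RIP, 24.7, 0.161 and 0.787 CPM in hnRNP F RIP and 0.826, 2.64 and 1.81 CPM in hnRNP K RIP. It had 1.11, 2.78 and 1.43 CPM in La/SSB RIP, 1.09, 0.103 and 0 CPM in FLAG RIP and 10.5, 2.28 and 0.642 CPM in Input. The hnRNP H1 libraries lay above FLAG and above Input, and only 1 hnRNP F library did. Its rise with hnRNP H1 (5.50 ± 1.42, adjusted p = 0.00528) held in all 14 alternatives, whereas that with hnRNP F (4.17 ± 1.34, 0.0228) came from hnRNP F RIP 1 and was gone without it (0.844).

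In the netrin system Unc5c rose against FLAG with all 4 antibodies. Unc5c, a receptor through which netrin repels axons, stood at 202, 173 and 174 CPM in hnRNP H1 RIP, at 134, 136 and 141 CPM in hnRNP F RIP and at 129, 112 and 76.8 CPM in hnRNP K RIP. It stood at 89.4, 62.9 and 54.5 CPM in La/SSB RIP, at 0.409, 4.65 and 7.59 CPM in FLAG RIP and at 59.2, 102 and 52.2 CPM in Input. All 12 specific RIP libraries lay above FLAG, and Input did too. The rises against FLAG were 5.40 ± 0.65, 4.98 ± 0.64, 4.65 ± 0.63 and 3.98 ± 0.61 on the log2 scale with hnRNP H1, hnRNP F, hnRNP K and La/SSB (edgeR adjusted p = 7.84e-06, 1.96e-05, 3.99e-05 and 0.000671), in all 14 alternatives each. FLAG was 4.05 below Input on the log2 scale (log2 fold change -4.05 ± 0.59, adjusted p = 0.00027). The hnRNP H1 libraries lay above Input without overlap, by 1.36 ± 0.52, which edgeR did not call (0.0635) and DESeq2 did (0.0439), and neither called the other 3 RIPs above Input. The ligands Ntn1 and Ntn4 and the receptor Unc5b were called in none of the 4 comparisons with FLAG.

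Of the Slits, ligands of Robo receptors, Slit3 rose with the 3 hnRNP antibodies and Slit2 fell with hnRNP F. Slit2 had 4.64, 1.29 and 3.54 CPM in hnRNP F RIP, 19.8, 9.28 and 5.46 CPM in hnRNP H1 RIP and 7.62, 4.40 and 4.49 CPM in hnRNP K RIP. It had 31.4, 8.59 and 10.3 CPM in La/SSB RIP, 10, 6.10 and 38.2 CPM in FLAG RIP and 20.7, 8.77 and 7.70 CPM in Input. The hnRNP F libraries lay below FLAG and Input, but its fall against FLAG (-2.46 ± 0.87, edgeR adjusted p = 0.0359) ended in 7 of 14 alternatives, among them leaving out FLAG RIP 3 (0.238). Slit3 rose against FLAG with hnRNP H1 (2.09 ± 0.39), hnRNP F (2.04 ± 0.39) and hnRNP K (1.35 ± 0.38). The call with hnRNP K ended without hnRNP K RIP 1 (0.0583) and with only the compared libraries (0.0687). Robo2, the only Robo entry, was at or below 3.68 CPM in every library.

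Of the teneurins, Tenm2 stood at 4202, 2804 and 2795 CPM in hnRNP H1 RIP and at 3633, 3254 and 3694 CPM in hnRNP F RIP. It stood at 2039, 1559 and 1392 CPM in hnRNP K RIP, at 901, 820 and 606 CPM in La/SSB RIP, at 644, 408 and 436 CPM in FLAG RIP and at 1253, 911 and 598 CPM in Input. The order hnRNP H1 and hnRNP F, then hnRNP K, then La/SSB held without overlap. It rose against FLAG by 2.70 ± 0.29, 2.81 ± 0.29 and 1.77 ± 0.28 on the log2 scale with hnRNP H1, hnRNP F and hnRNP K (edgeR adjusted p = 2.5e-06, 2.06e-06 and 0.000155), in all alternatives. Against Input it rose by 1.83 ± 0.29 and 1.94 ± 0.29 with hnRNP H1 and hnRNP F and by 0.85 ± 0.28 with hnRNP K, the last with adjusted p = 0.0482 and lost in 6 of 14 alternatives.

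The specific RIPs were then compared with each other, which leaves the FLAG libraries out of the contrast. Of 53 members 22 differed among the 4, beside 33.3% of all entries. The 6 with the smallest p were Ephb3 (edgeR adjusted p = 2.68e-07), Sema5a (7.43e-06), Plxna1 (1.3e-05), Sema3g (1.71e-05), Tenm2 (1.92e-05) and Sema3c (3.33e-05), and all 6 held in all 20 alternatives. By family these were 11 of 17 semaphorin entries, 2 of 8 plexins, both neuropilins, 3 of 6 ephrins and 1 of 10 Eph receptors, with Slit3, Tenm2 and Tenm3 beside them.

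Between hnRNP H1 and hnRNP F, 0 of 53 members were called by edgeR, beside 0.0% of all entries. At unadjusted p under 0.05 there were 5, and DESeq2 called 1, the teneurin Tenm3, named here after its values were seen. Tenm3 had 64.6, 71.1 and 67.9 CPM in hnRNP H1 RIP and 7.62, 12.3 and 18.3 CPM in hnRNP F RIP, without overlap (log2 fold change 2.41 ± 0.46, edgeR adjusted p = 0.113). The test does not show that hnRNP H1 and hnRNP F precipitates were alike.

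hnRNP K differed from the mean of hnRNP H1 and hnRNP F in both directions. Of 53 members 7 were higher with hnRNP K and 8 lower, beside 34.1% of all entries (16.6% higher, 17.5% lower), and the median was -0.36 beside -0.17 over all entries. Scaled by total reads, 6 were higher and 11 lower, beside 14.1% and 19.6% of all entries, with medians of -0.54 and -0.34. The members higher with hnRNP K were Sema4d of 2610 nt (3.37 ± 0.76), Sema5a (3.33 ± 0.36), Sema6d of 4258 nt (3.23 ± 0.74) and of 5874 nt (2.28 ± 0.45), Plxna1 (2.31 ± 0.26), Nrp1 (1.87 ± 0.29) and Plxnd1 (1.05 ± 0.36). Those higher with hnRNP H1 and hnRNP F were Sema4c (-5.94 ± 1.05), Sema3g (-4.94 ± 0.72), Ephb3 (-3.99 ± 0.40), Sema3b (-3.21 ± 0.58), Sema6b (-3.15 ± 0.77), Sema3c (-1.34 ± 0.34), Tenm2 (-0.99 ± 0.24) and Nrp2 (-0.97 ± 0.30).

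Thus the 2 neuropilins were called in opposite directions, Nrp1 toward hnRNP K (edgeR adjusted p = 5.25e-05) and Nrp2 toward hnRNP H1 and hnRNP F (0.0158). The class 3 semaphorins that were called all lay on the hnRNP H1 and hnRNP F side, and both called plexins on the hnRNP K side. The call of Nrp2 ended without hnRNP K RIP 2 or 3 (0.0559 and 0.102), and that of Plxnd1, whose libraries overlapped, ended in 7 of 17 alternatives.

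**Figure D4:**
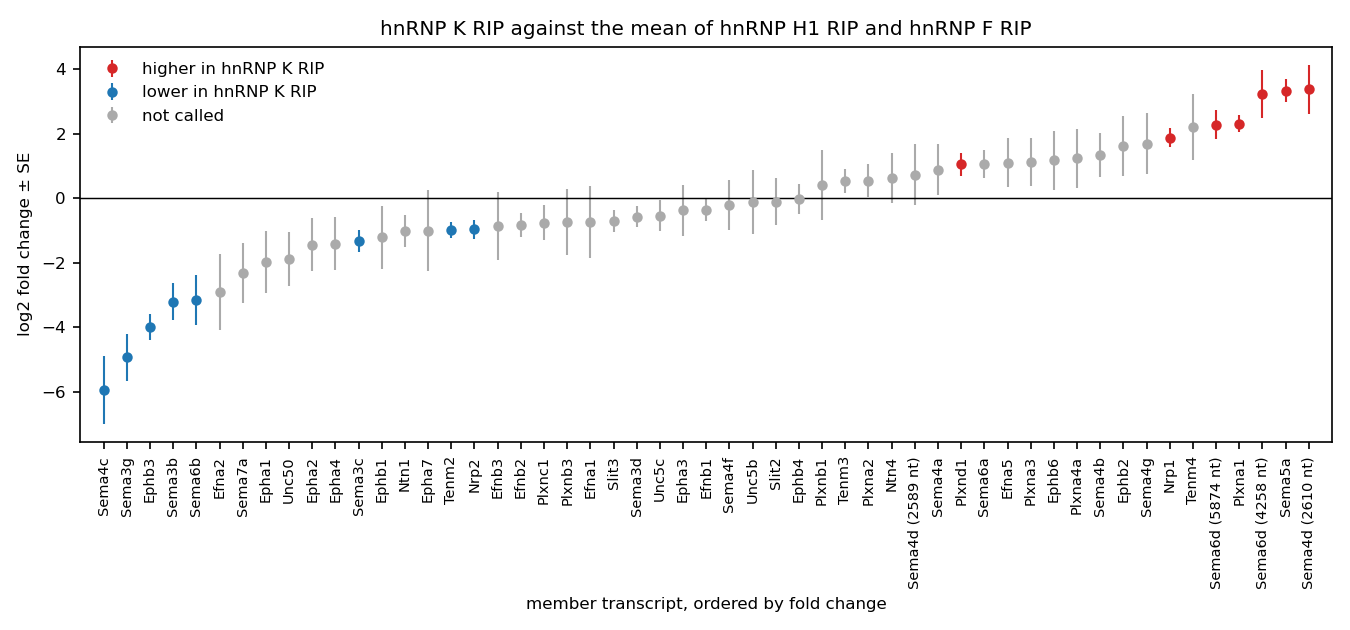
Log2 fold change ± SE of the 53 tested members in hnRNP K RIP (3 libraries) against the mean of hnRNP H1 RIP and hnRNP F RIP (6 libraries), ordered by size and coloured by call. Sema4c lies lowest at -5.94 and Sema4d of 2610 nt highest at 3.37, with most members between not called.

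Cell type markers moved along with these groups. The 8 fibroblast and perineurial markers took 12.1% to 21.5% of reads in hnRNP K RIP, 8.03% to 12.1% in hnRNP H1 RIP, 6.2% to 9.92% in hnRNP F RIP, 5.2% to 7.74% in La/SSB RIP and 1.61% to 2.6% in FLAG RIP. Col1a1 carried this sum, with medians of 180449 CPM in hnRNP K RIP, 103698 CPM in hnRNP H1 RIP, 88188 CPM in hnRNP F RIP, 36619 CPM in La/SSB RIP, 10779 CPM in FLAG RIP and 40732 CPM in Input. The hnRNP K median of all 8 genes was above those of hnRNP H1 and hnRNP F, but from Input to hnRNP H1 RIP 6 of the 8 were lower, for example Col3a1 (6369 to 1388 CPM), Dcn (2022 to 271 CPM) and Lum (1314 to 132 CPM). The 7 endothelial and mural markers with an entry, of 8, took 0.0509% to 0.0652% in hnRNP K RIP and 0.02% to 0.0239% in hnRNP H1 and hnRNP F RIP together. Of these 7, the hnRNP K median was above both others for Cdh5, Pdgfrb and Acta2 and below both for Tek and Rgs5. The 10 Schwann cell markers took 0.411% to 0.487% in hnRNP K RIP, 0.137% to 0.179% in hnRNP H1 RIP and 0.209% to 0.28% in hnRNP F RIP, and 9 of them, all but Egr2, had their highest median of these in hnRNP K RIP. The 8 neuronal markers took 0.00872% to 0.00981% in hnRNP K RIP, 0.0277% to 0.0339% in hnRNP H1 RIP and 0.0215% to 0.0581% in hnRNP F RIP. Nefm (12.1, 196 and 426 CPM in the same order) and Gap43 (63, 118 and 154 CPM) carried that sum, and Nefl was also lowest in hnRNP K RIP. Stmn2 (15.7, 0.64 and 5.97 CPM), Snap25 (9.06, 0 and 0.484 CPM) and Uchl1 (6.26, 1.31 and 2.75 CPM) ran the other way. The 6 macrophage markers with an entry, of 8, took 0.193% to 0.326%, 0.0603% to 0.0867% and 0.114% to 0.168% in the same order, with 5 of the 6, all but Adgre1, highest in hnRNP K RIP. Their part in the member differences was not tested.

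Against La/SSB, hnRNP K RIP held more of 7 of 53 members and less of 0 by edgeR, beside 12.6% of all entries (7.26% higher, 5.35% lower). At unadjusted p under 0.05, 3 were lower, and DESeq2 called 1 lower. The 7 were Efna5, Sema6d of 5874 nt, Nrp1, Sema5a, Efnb1, Plxna1 and Tenm2, with log2 fold changes from 3.39 to 1.16. This split depended on the scaling: by total reads 2 were higher and 5 lower, while the median of all entries moved from -0.15 to -1.04 and that of the members from 0.40 to -0.51. Nrp1 (2.22 ± 0.36, adjusted p = 0.000493) and Sema6d of 5874 nt (3.19 ± 0.58, 0.00135) were higher under both. The count was 3 without hnRNP K RIP 1, where the calls of Efna5, Efnb1, Sema5a and Tenm2 ended (0.146, 0.0902, 0.0611 and 0.0585).

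Against Input, 12 of 54 members were higher with hnRNP H1 and 2 lower, beside 24.1% of all entries (13.4% higher, 10.7% lower). With hnRNP F 10 rose and 3 fell, beside 18.9% (11.7% higher, 7.22% lower), and with hnRNP K 5 rose and 1 fell, beside 13.1% (6.58% higher, 6.47% lower). With La/SSB edgeR called 0, beside 0.0376% of all entries (0.0226% higher, 0.015% lower), although 6 members had an unadjusted p under 0.05; DESeq2 also called 0. By total reads the splits were 9 higher and 5 lower, 9 and 6, and 2 and 2 for hnRNP H1, hnRNP F and hnRNP K, beside 8.85% and 19.7%, 7.27% and 14.5%, and 2.3% and 16.3% of all entries, whose medians moved to -0.56, -0.49 and -0.77. The falls were Nrp1 and Sema5a with hnRNP H1, Plxnd1, Sema5a and Tenm3 (-1.85 ± 0.44) with hnRNP F, and Ephb3 with hnRNP K. The fall of Nrp1 ended without Input 1 (0.245) and in 4 other alternatives, and that of Plxnd1 without Input 3 (0.0629) or hnRNP F RIP 1 (0.0775). The hnRNP H1 count was 9 without Input 2, and the hnRNP K count was 1 without hnRNP K RIP 1 and 3 without Input 2, Input 3, hnRNP K RIP 2 or hnRNP K RIP 3.

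Summed over the 53 guidance entries without Unc50, the level was 4678 ± 1162 CPM in Input and 2650 ± 929 CPM in FLAG RIP (SD, n = 3 each). It was 9799 ± 1659 CPM with hnRNP H1, 11449 ± 846 CPM with hnRNP F, 8916 ± 2304 CPM with hnRNP K and 4103 ± 653 CPM with La/SSB. Most of this sum lay in the 5 entries highest in Input, and without them it was 1439 ± 133, 993 ± 202, 2391 ± 367, 2435 ± 379, 2737 ± 282 and 1395 ± 187 CPM in the same order. The members were long transcripts, with a median of 4292 nt beside 2223 nt over all entries. Across the 53 members the Spearman correlation of length with the log2 fold change of hnRNP K over hnRNP H1 and hnRNP F was 0.31, beside 0.11 across all entries, which describes genes within the same libraries and is no test.

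Other genes of the guidance pathways were taken as 17 tested entries for further co-receptors and cues and 65 for partners inside the cell. Both lists were written with earlier results of these data known, so their counts are descriptive. Of the co-receptors and cues 8 rose and 0 fell against FLAG with hnRNP K, beside 14.5% and 19.4% of all entries, with a median log2 fold change of 1.05 beside -0.30. DESeq2 and an unadjusted p under 0.05 also gave 8 higher and 0 lower each, and total reads gave 5 and 0. The 8, named after their values were seen, were Chl1, Cntn2, Flrt1, Gpc1, Kdr, Lingo1, Ngfr and Rgma, of which Kdr and Ngfr also stand among the cell type markers. With hnRNP H1 2 rose and 2 fell, with hnRNP F 4 rose and 3 fell, and with La/SSB 3 rose and 0 fell (5 and 0 at unadjusted p under 0.05, 4 and 0 by DESeq2), with medians of 0.08, -0.21 and 0.59. Of all entries 18.3% rose and 21.2% fell with hnRNP H1, 16.6% and 17.1% with hnRNP F, and 9.1% and 9.67% with La/SSB. Of the 65 intracellular partners 13 rose and 15 fell with hnRNP H1, 10 rose and 15 fell with hnRNP F, 6 rose and 11 fell with hnRNP K, and 4 rose and 10 fell with La/SSB. As shares of the partners these were 20% and 23.1%, 15.4% and 23.1%, 9.23% and 16.9%, and 6.15% and 15.4%, beside the shares of all entries given above. Their medians were -0.84, -0.93, -0.37 and -0.80, beside -0.27, -0.21, -0.30 and -0.32 over all entries. For the GTPase Cdc42, which drives filopodia, the entry ENSRNOT00000018118 rose with all 4 antibodies. It stood at 17 ± 1.8 CPM with hnRNP H1 against 0.159 ± 0.223 CPM in FLAG RIP (5 reads). Its log2 fold changes were 6.19 ± 0.94, 5.65 ± 0.92, 5.3 ± 0.91 and 4.53 ± 0.88. Another Cdc42 entry was called higher than FLAG with hnRNP H1 and hnRNP F but not with hnRNP K or La/SSB. The GTPase Rac1 had entries that went in opposite directions. That of ENSRNOT00000001417 fell with hnRNP H1 (-3.68 ± 0.90) and hnRNP F (-4.14 ± 0.93), while another Rac1 entry was called higher than FLAG in these same 2 RIPs. The entry ENSRNOT00000087094, with no FLAG read, had 4.12 ± 1.38 CPM in La/SSB RIP and was called there (edgeR adjusted p = 0.00348). Such entries of 1 gene may exchange reads. Cntn2, an axonal adhesion protein without a FLAG read, had 2.16 ± 2.48 CPM with hnRNP H1 and 1.06 ± 0.635 CPM with hnRNP K, and was called in both.

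Further pathway calls against FLAG were rises of the Unc5 ligand gene Flrt1 with hnRNP F (3.83 ± 1.29) and falls of the Rac regulator gene Chn2 with hnRNP H1 (-3.49 ± 1.04) and the focal adhesion kinase gene Ptk2 with hnRNP F (-3.81 ± 0.97). The kinase gene Fyn fell with hnRNP K (-3.82 ± 1.07) and La/SSB (-3.14 ± 1.03), the plexin effector gene Mical1 with hnRNP K (-3.21 ± 0.81) and the adaptor gene Nck2 with La/SSB (-2.3 ± 0.69). Between hnRNP K and the mean of hnRNP H1 and hnRNP F, 8 of the 17 co-receptors and cues were higher with hnRNP K and 0 lower by edgeR (median 1.11 beside -0.17 over all entries), as at unadjusted p under 0.05 and by DESeq2 (8 and 0), and 4 and 0 by total reads. The 8 called by edgeR, named after their values were seen, were Cntn1, Flrt2, Flrt3, Gpc1, Itgb1, Met, Ngfr and Rgma. Only Gpc1, Ngfr and Rgma of these were also called higher than FLAG with hnRNP K. Of the 65 intracellular partners 14 were higher and 13 lower (median -0.03), beside 16.6% and 17.5% of all entries. Cfl1, the actin-severing cofilin, was at 1716 ± 158 CPM with hnRNP K against 161 ± 87.9 CPM (3.51 ± 0.27), and Rgma, a membrane-anchored repulsive cue, at 570 ± 84.9 against 58.8 ± 20.5 CPM (3.35 ± 0.38). The actin polymerase gene Vasp (-2.50 ± 0.46) and the ephrin-cleaving protease gene Adam10 (-2.49 ± 0.40) were higher with hnRNP H1 and hnRNP F.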

How the data were processed

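Libraries were grouped by their titles. The authors deposited, per the file headers, a read count and an FPKM value per Ensembl rat transcript. The deposited counts are reads plus 1 (the lowest value is 1 in 17 of 18 libraries), and the deposited FPKM equals count minus 1 per transcript length and library total, with deviations up to 2.5e-14. A further 18 columns of normalised counts were not used. CASAVA 1.8.2 and edgeR appear in the submitters' processing notes. Strand setting, aligner, counter and assembly are not given in the sources used, so no coordinates are printed. Members, lists, tests and alternatives were chosen with earlier results of these data known.

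Counts as deposited were tested with edgeR 4.0.16 (limma 3.58.1, R 4.3.3): filterByExpr by group (minimum count 10, minimum total 15), TMM, glmQLFit and two-sided glmQLFTest, with Benjamini-Hochberg adjustment over all entries and a threshold of 0.05. The 15 RIP libraries served comparisons with FLAG and between specific RIPs (13276 entries, 10 residual degrees of freedom), and all 18 those with Input (13300 entries, 12 residual degrees of freedom). Levels are CPM, reads (count minus 1) per 1000000 TMM-scaled reads. Fold changes are log2 ± SE, 3 libraries against 3. Bounds against 0 reads use 3 reads over the group; intervals are exact at 95% and, like bounds, cover counting error only.

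Named members were, per comparison with FLAG, up to 6 largest rises and 3 largest falls among the calls, the 6 smallest p among the 4 RIPs, the 6 largest called differences of hnRNP K from hnRNP H1 and hnRNP F, the 5 highest in Input, and symbols with 2 entries; pathway genes were named as the 2 largest rises and falls. Other members called against FLAG are given by their fold change, and some called in the other comparisons only by name or within counts. On simulated counts the test of hnRNP K against FLAG recovered 186 of 200 changed entries and called 6 unchanged ones. Those counts had the same spread in all groups and changes only in entries above a minimum level. They therefore do not show how the test fares with the uneven spread of the RIP groups or with low members. Alternatives were total-count scaling, DESeq2 size factors, DESeq2 1.42.0, counts minus 1, no filter, only the compared libraries, a replicate block, each library left out, and FLAG RIP 2 alone as control, the last added after seeing the data since FLAG RIP 1 and 3 had the most entries without reads.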

Additional observations from a re-analysis of the deposited data

How the results depend on the processing

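A tally covered only the calls picked by the naming rule against FLAG and between specific RIPs. Of their alternative values 575 stayed on the same side of the threshold, 50 passed it no longer, and 0 turned around in direction. Left out of it are all calls against Input and other calls reported above. Among those, the call of Plxna4a with hnRNP K ended in 10 of 14 alternatives and that of Ephb1 with hnRNP H1 in 8. With only the compared libraries in the fit, which leaves fewer libraries to estimate the spread, the number of members called against FLAG was 11 with hnRNP F, 13 with hnRNP K and 5 with La/SSB, and it was 1 for FLAG against Input. hnRNP K was also compared in this way with Input, with hnRNP H1 and hnRNP F, and with La/SSB. Over the whole table this called 4169 of 12265, 5689 of 12536 and 4293 of 12964 entries in that order. The number of members called was 16, 24 and 20. With FLAG RIP 2 alone as control the last 3 counts were 14, 25 and 14, and it was 5 for La/SSB against FLAG, 1 for La/SSB against Input and 1 for hnRNP H1 against hnRNP F. DESeq2 gave 1 for hnRNP H1 against hnRNP F, beside 81 of 13276 entries. The main fit gives all groups a common spread per entry. Between replicates the median SD of log2 CPM was 0.981 in FLAG RIP, the largest, 0.741 in hnRNP F RIP and 0.376 in hnRNP K RIP, the smallest. The cause of the changes in these counts was not tested.

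With each compared library left out in turn, the counts against FLAG were 21 to 29 with hnRNP H1, 17 to 28 with hnRNP F, 13 to 26 with hnRNP K and 7 to 20 with La/SSB. Against Input they were 6 to 18 with FLAG, 9 to 12 with hnRNP H1, 10 to 12 with hnRNP F, 1 to 4 with hnRNP K and 0 to 0 with La/SSB. Between specific RIPs they were 0 to 0 for hnRNP H1 against hnRNP F, 13 to 18 for hnRNP K against hnRNP H1 and hnRNP F, 3 to 7 for hnRNP K against La/SSB and 18 to 21 for the difference among the 4. The low ends came without hnRNP K RIP 1 (13 and 3) and Input 1 (6), the high ends without FLAG RIP 2 (20 and 18).

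The replicate numbers in the titles do not show a shared animal or day. Deviations from the group mean correlated at 0.00529 to 0.195 (median 0.07) in the 45 same-numbered pairs, 11 of them over 0.1, and at -0.147 to 0.0616 in the 90 others, and 18 of 18 libraries correlated best with their own number, a hint from the data and not the design. With a replicate block the counts were 25, 23, 23 and 13 for hnRNP H1, hnRNP F, hnRNP K and La/SSB against FLAG, and 1 for La/SSB against Input. Low members are limited by depth: values of a few CPM rest on few reads, and FLAG folds of members with 0 or 1 FLAG reads are bounds or wide intervals.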

Other observations

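Some members called against FLAG have not yet been given by library. Efna5, a GPI-anchored ephrin, had 26.3, 7.73 and 11.4 CPM in hnRNP K RIP, 12, 7.05 and 5 CPM in hnRNP H1 RIP and 1.16, 10.8 and 7.87 CPM in hnRNP F RIP. It had 1.71, 1.56 and 1.01 CPM in La/SSB RIP, 1.3, 2.27 and 0.124 CPM in FLAG RIP and 3.67, 1.75 and 0.642 CPM in Input. Its hnRNP K and hnRNP H1 libraries lay above all FLAG, La/SSB and Input libraries, and the call with hnRNP K (log2 fold change 3.59 ± 1.00, edgeR adjusted p = 0.0107) ended without hnRNP K RIP 1 (0.0567). The call with hnRNP H1 (2.64, edgeR adjusted p = 0.0369) ended in 7 of 14 alternatives. Epha3, a receptor of GPI-anchored ephrins, had 12, 31.7 and 14.4 CPM in hnRNP H1 RIP against 3.48, 1.96 and 0 CPM in FLAG RIP, without overlap. It had 10.6, 4.52 and 17.7 CPM in hnRNP F RIP, 14.7, 9.89 and 7.88 CPM in hnRNP K RIP, 8.32, 5.38 and 8.52 CPM in La/SSB RIP and 15.6, 3.51 and 11.7 CPM in Input. Every specific RIP library was above FLAG, and the rise with hnRNP H1 was 3.35 ± 0.97 (edgeR adjusted p = 0.0109). The rises of Epha3 with hnRNP F (2.52, 0.0465) and hnRNP K (2.55, 0.0438) each ended in 9 of 14 alternatives. With hnRNP H1, Efnb2 and Tenm3 also rose against FLAG, by 1.22 and 1.66 on the log2 scale (edgeR adjusted p = 0.026 and 0.00711). The call of Efnb2 ended in 6 of 14 alternatives.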
